A study of Mus musculus with 8 samples.

Results

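The genes described here are 10 receptors for the Fc part of IgG and the first proteins they signal through, in the right cerebral cortex of mice after bilateral carotid artery stenosis (BCAS). They are the Fc gamma receptors Fcgr1, Fcgr2b, Fcgr3 and Fcgr4, their shared signaling chain Fcer1g, the intracellular IgG receptor Fcgrt, the kinases Syk and Btk, the phospholipase Plcg2 and the inositol phosphatase Inpp5d. They were chosen by name for their place in this pathway, and they are 10 of the 54752 genes counted. The mice were male, wild-type (WT) C57BL/6 animals (C57BL/6 J in the methods), 14 weeks old at collection. In the 4 BCAS mice a microcoil was wrapped around each common carotid artery, with a narrower coil on the right than on the left, and the 4 Sham mice had the operation without coils. The cortex was taken 3 weeks after surgery, with 1 mouse in each library, and RNA-seq reads were counted on the exons of each gene. The comparison asks which of these genes differ in level between BCAS and Sham cortex.

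Fc gamma receptors bind IgG that has coated a target. The activating receptors (in mice Fcgr1, Fcgr3 and Fcgr4) have no signaling tail of their own and depend on the Fcer1g chain, whose ITAM motif is phosphorylated by Src-family kinases and then recruits Syk. Syk, with Tec-family kinases such as Btk, leads to activation of Plcg2, calcium release and phagocytosis, whereas the inhibitory receptor Fcgr2b carries an ITIM motif that recruits the phosphatase SHIP1, the product of Inpp5d. In the brain these genes are used mostly by microglia and other macrophages, while Fcgrt (FcRn), which pairs with B2m and carries IgG through and out of cells, is also used by endothelium.

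The 8 libraries held 16759364 to 21794435 counts. Values are given as CPM, counts per 1000000 counts of a library after TMM scaling, and are listed from mouse 1 to mouse 4 of a group wherever 4 values stand together. In these units 3 counts, the most that a count of 0 allows, were worth 0.132 to 0.187 CPM (counting error only). With edgeR's quasi-likelihood test, a gene was called when its Benjamini-Hochberg adjusted p was under 0.05 and its log2 fold change was beyond 1 in either direction. Of 17136 genes with enough counts to be tested, 11.0% were called higher and 1.28% lower in BCAS. The summed level of 12 microglial identity genes ran from 419.9 to 504.9 CPM in Sham and from 1647 to 5994 CPM in BCAS, and that of 8 pan-neuronal genes from 8132 to 9403 CPM and from 3089 to 6859 CPM. Genes of cortical excitatory neurons, 6 in number, summed to 1960 to 2200 CPM in Sham and 609.8 to 1691 CPM in BCAS, and were thus present in all 8 libraries.

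All 10 genes passed the filter and all 10 were called higher in BCAS, against the 11.0% of all tested genes (9.48% in a fit with the replicate number as a block, where all 10 were called as well). Their median log2 fold change was 3.68, and that of all tested genes was -0.006. In each of the 10, every BCAS library lay above every Sham library, which held for 18.5% of the tested genes. BCAS mouse 1 was the highest and BCAS mouse 2 the lowest of the BCAS mice for all 10, and for 8 of the 10 the order was mouse 1, 3, 4 and 2. The summed microglial identity genes rose in the same libraries, to 5994, 1647, 2944 and 3199 CPM in BCAS, with mouse 4 above mouse 3. The part of this rise in the results below was not tested. In bulk tissue, fewer cells of a type and less RNA per cell cannot be told apart, and the same holds for an increase.

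**Figure D1:**
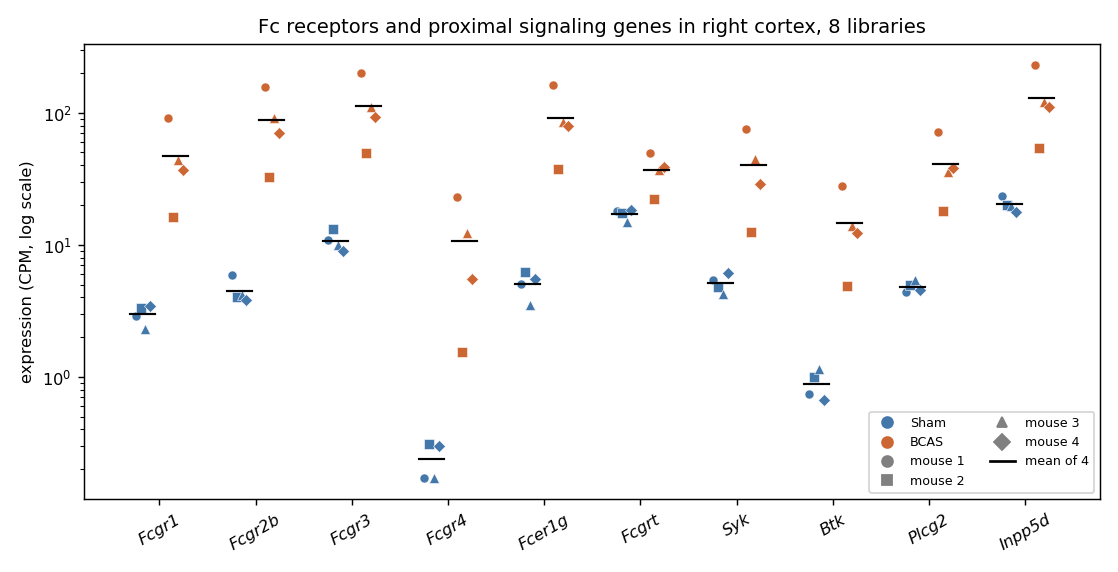
Expression in CPM (log axis) of the 10 genes in the 4 Sham (blue) and 4 BCAS (orange) libraries, with marker shapes for mice 1 to 4 and a black bar for the arithmetic mean of 4. All BCAS points lie above all Sham points of the same gene, from Fcgr4, with Sham at 0.171 to 0.312 CPM and BCAS at 1.55 to 23.2 CPM, to Fcgrt, with Sham at 14.8 to 18.3 CPM and BCAS at 22.1 to 49.8 CPM.

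Of the activating receptors, Fcgr1 encodes the high-affinity receptor CD64. The gene (ENSMUSG00000015947.10) lies on the minus strand at chr3:96282909-96293969 of mm10. Fcgr1 was at 2.90, 3.31, 2.29 and 3.44 CPM in Sham and at 90.5, 16.4, 43.6 and 36.6 CPM in BCAS. The BCAS values spread 5.53-fold among themselves and the Sham values far less, with no overlap between the groups. The mean rose from 2.98 ± 0.518 CPM to 46.8 ± 31.4 CPM (SD, n = 4 each), which is 15.7-fold, with an edgeR log2 fold change of 3.97 ± 0.49 (SE) and an adjusted p of 0.00203.

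Fcgr3, the low-affinity activating receptor (ENSMUSG00000059498.13, chr1:171051174-171064935, minus strand), was the most abundant of the 4 Fc gamma receptors. Its CPM values were 10.9, 13.2, 10.01 and 8.99 in Sham and 199.1, 49.3, 110.8 and 93.2 in BCAS. The lowest BCAS library was thus well above the highest Sham library. The mean went from 10.8 ± 1.81 to 113.1 ± 62.9 CPM (SD, n = 4 each), 10.5-fold, with an edgeR log2 fold change of 3.39 ± 0.39 (SE) and an adjusted p of 0.00181. Of the 1733 stretches of 100 bases in its exons, 2.54% occur also in Fcgr2b, so a small share of reads could belong to either gene.

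Fcgr4, a receptor for IgG2a/c and IgG2b (ENSMUSG00000059089.4, chr1:171018920-171029761, plus strand), stood lowest in Sham cortex, with 3, 5, 3 and 5 counts in Sham. In BCAS it had 527, 30, 228 and 101 counts, or 23.2, 1.55, 12.3 and 5.50 CPM. The groups did not overlap, and BCAS mouse 2 was the lowest of the BCAS mice by a wide margin. The summed counts were 16 in Sham and 886 in BCAS, a library-size-adjusted ratio of 47.4 with an exact 95% counting interval from 29.0 to 83.3, which covers counting error only. Without BCAS mouse 1, which held 527 of the 886 counts, the ratio was 27.0, with a counting interval from 16.4 to 47.7. The edgeR log2 fold change was 5.45 ± 0.88 (SE) with an adjusted p of 0.00410, the largest change among the 10 genes. Without BCAS mouse 1 the log2 fold change was 4.74, and in limma on log2(CPM + 1), a scale that shrinks the change of low genes, it was 2.79. In limma-voom the value was 4.82 with an adjusted p of 0.0515, which is the one alternative test where a member lost its call on the p-value.

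Fcgr2b, the inhibitory receptor (ENSMUSG00000026656.15, chr1:170958617-170976547, minus strand), rose as well. It was at 5.91, 3.99, 4.18 and 3.80 CPM in Sham and at 157.5, 32.8, 90.5 and 70.7 CPM in BCAS. The groups did not overlap. The mean rose 19.7-fold, from 4.47 ± 0.972 to 87.9 ± 52.2 CPM (SD, n = 4 each), with an edgeR log2 fold change of 4.29 ± 0.46 (SE) and an adjusted p of 0.00154. Of the 5843 stretches of 100 bases in its exons, 4.3% occur also in other genes on either strand, most often in Cplx2, Gm47409 and Rab3c. A small share of its reads could thus belong to other genes. In edgeR the change of this inhibitory receptor was larger than those of Fcgr1 and Fcgr3 and smaller than that of Fcgr4, and the ratios below give the test of those differences. The order against Fcgr4 depended on the scale, since limma on log2(CPM + 1) gave 3.83 for Fcgr2b and 2.79 for Fcgr4.

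Fcer1g, the ITAM-bearing chain shared by the activating receptors (ENSMUSG00000058715.11, chr1:171229572-171234365, minus strand), was at 5.06, 6.18, 3.49 and 5.49 CPM in Sham. In BCAS it was at 162.2, 37.7, 85.7 and 78.9 CPM. Every BCAS value was several times the highest Sham value. The mean rose 18.0-fold, from 5.05 ± 1.14 to 91.1 ± 51.9 CPM (SD, n = 4 each), with an edgeR log2 fold change of 4.17 ± 0.43 (SE) and an adjusted p of 0.00146.

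Fcgrt (ENSMUSG00000003420.8, chr7:45092990-45103851, minus strand), which encodes FcRn, changed least. It was at 18.2, 17.5, 14.8 and 18.3 CPM in Sham and at 49.8, 22.1, 36.8 and 38.7 CPM in BCAS. BCAS mouse 2 lay just above the Sham range. The mean rose 2.14-fold, from 17.2 ± 1.66 to 36.8 ± 11.4 CPM (SD, n = 4 each), with an edgeR log2 fold change of 1.10 ± 0.22 (SE) and an adjusted p of 0.00848. Without BCAS mouse 1 the log2 fold change was 0.93 with an adjusted p of 0.00769, under the size needed for a call. Of all tested genes, 10.8% had a larger log2 fold change than Fcgrt, whereas for the other 9 genes this share was between 0.315% and 3.23%.

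Among the signaling enzymes, Btk, the Tec-family kinase (ENSMUSG00000031264.13, chrX:134542336-134583570, minus strand), had the largest change. Its counts were 13, 16, 20 and 11 in Sham and 629, 95, 256 and 226 in BCAS. The mean rose from 0.886 ± 0.224 to 14.7 ± 9.49 CPM (SD, n = 4 each), with an edgeR log2 fold change of 4.04 ± 0.52 (SE) and an adjusted p of 0.00214. The groups were apart, although the Sham level rests on few reads.

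Syk, the kinase that docks on phosphorylated ITAMs (ENSMUSG00000021457.14, chr13:52583173-52648792, plus strand), was at 5.40, 4.81, 4.23 and 6.10 CPM in Sham and at 75.3, 12.5, 44.9 and 28.8 CPM in BCAS. Its mean rose 7.86-fold, from 5.13 ± 0.799 to 40.4 ± 26.8 CPM (SD, n = 4 each), with an edgeR log2 fold change of 2.98 ± 0.48 (SE) and an adjusted p of 0.00429. The BCAS values spread 6.04-fold, more than for any other of the 10 genes except Fcgr4.

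Plcg2, the phospholipase that cleaves PIP2 into the calcium-releasing messenger IP3 and diacylglycerol (ENSMUSG00000034330.10, chr8:117498291-117635142, plus strand), was at 4.38, 4.99, 5.43 and 4.53 CPM in Sham. In BCAS it was at 72.1, 18.1, 35.8 and 38.1 CPM. The mean rose 8.49-fold, from 4.83 ± 0.480 to 41.0 ± 22.5 CPM (SD, n = 4 each), with an edgeR log2 fold change of 3.09 ± 0.38 (SE) and an adjusted p of 0.00198. The Sham mice were within 1.24-fold of each other.

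Inpp5d, whose product SHIP1 removes a phosphate from PIP3 and so limits recruitment of Btk and Plcg2 to the membrane (ENSMUSG00000026288.14, chr1:87620312-87720507, plus strand), was at 23.4, 19.97, 19.6 and 17.9 CPM in Sham. In BCAS it was at 231.1, 54.1, 121.4 and 110.9 CPM. The groups did not overlap, and the mean rose 6.41-fold, from 20.2 ± 2.33 to 129.4 ± 74.0 CPM (SD, n = 4 each). The edgeR log2 fold change was 2.68 ± 0.38 (SE) with an adjusted p of 0.00280, the smallest of the signaling enzymes.

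Per kilobase of exon, the order of the levels differed between the groups. In Sham cortex Fcgrt stood highest at 8.18 ± 0.788 CPM per kb, followed by Fcgr3 at 6.20 ± 1.04 and Fcer1g at 5.78 ± 1.31 CPM per kb (SD, n = 4), and neighbours among these 3 overlapped in range. Inpp5d followed at 2.66 CPM per kb, apart from its neighbours on both sides, and then Fcgr1 at 1.15, Plcg2 at 1.12 and Fcgr2b at 0.772 CPM per kb, each overlapping the next. Syk at 0.548 CPM per kb lay apart from the genes above and below it, and Btk at 0.281 and Fcgr4 at 0.190 CPM per kb were lowest, overlapping each other. In BCAS cortex Fcer1g was highest at 104.2 ± 59.4 CPM per kb, then Fcgr3 at 65.2 ± 36.2, Fcgr1 at 18.1 ± 12.1, Fcgrt at 17.5 ± 5.42, Inpp5d at 17.0 ± 9.73 and Fcgr2b at 15.2 ± 9.02 CPM per kb (SD, n = 4). Below these were Plcg2 at 9.54, Fcgr4 at 8.47, Btk at 4.66 and Syk at 4.31 CPM per kb. All neighbours in the BCAS order overlapped in range across mice, where all 10 genes were highest in mouse 1 and lowest in mouse 2. Within each BCAS mouse, however, Fcer1g stood at 6.27 to 7.62 times, Fcgr3 at 4.08 to 5.02 times and Fcgr1 at 1.08 to 1.29 times the level of Fcgr2b per kilobase, so these 4 had the same order in all 4 BCAS mice.

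Ratios within a library remove the part of the spread that the genes share, and 8 pairs were tested. The test was an exact two-sided permutation of the group labels, which has 70 arrangements and cannot give a p under 0.0286. The ratio of Fcgr3 to Fcgr2b per kilobase, an activating over the inhibitory receptor, was 6.11, 11.0, 7.97 and 7.86 in Sham and 4.22, 5.02, 4.08 and 4.39 in BCAS. It was lower in all 4 BCAS mice than in any Sham mouse, with a log2 difference of -0.87 (exact permutation p = 0.0286, Benjamini-Hochberg over 8 pairs 0.0571). The ratio of Fcgr1 to Fcgr2b ran from 1.10 to 2.02 in Sham and from 1.08 to 1.29 in BCAS, so the groups overlapped (log2 difference -0.38, exact permutation p = 0.229, adjusted 0.359). That of Fcgr4 to Fcgr2b had geometric means of 0.268 and 0.429, also overlapping (log2 difference 0.68, exact permutation p = 0.286, adjusted 0.359). The ratio of Fcer1g to Fcgr2b was 7.44 in Sham and 7.01 in BCAS, a log2 difference of -0.09 with an exact permutation p of 0.686. Of these 4 ratios to Fcgr2b, the one that separated the groups was lower in BCAS.

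For the enzymes, the ratio of Btk to Inpp5d per kilobase was 0.0789, 0.124, 0.144 and 0.0933 in Sham and 0.289, 0.219, 0.276 and 0.269 in BCAS. The groups were apart, with a log2 difference of 1.29. The ratio of Plcg2 to Inpp5d was 0.332, 0.444, 0.493 and 0.450 in Sham and 0.551, 0.591, 0.522 and 0.609 in BCAS, again apart, with a smaller log2 difference of 0.42. The ratio of Syk to Inpp5d overlapped between the groups, with geometric means of 0.206 and 0.237 (log2 difference 0.20, exact permutation p = 0.314, adjusted 0.359). The widest gap was that of Fcer1g to Fcgrt, at 0.572 to 0.850 in Sham and 4.10 to 7.83 in BCAS, a log2 difference of 2.97. These 3 separated ratios had the same exact permutation p of 0.0286 and the same adjusted value of 0.0571, so 4 of 8 pairs were apart and none passed 0.05 after adjustment.

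**Figure D2:**
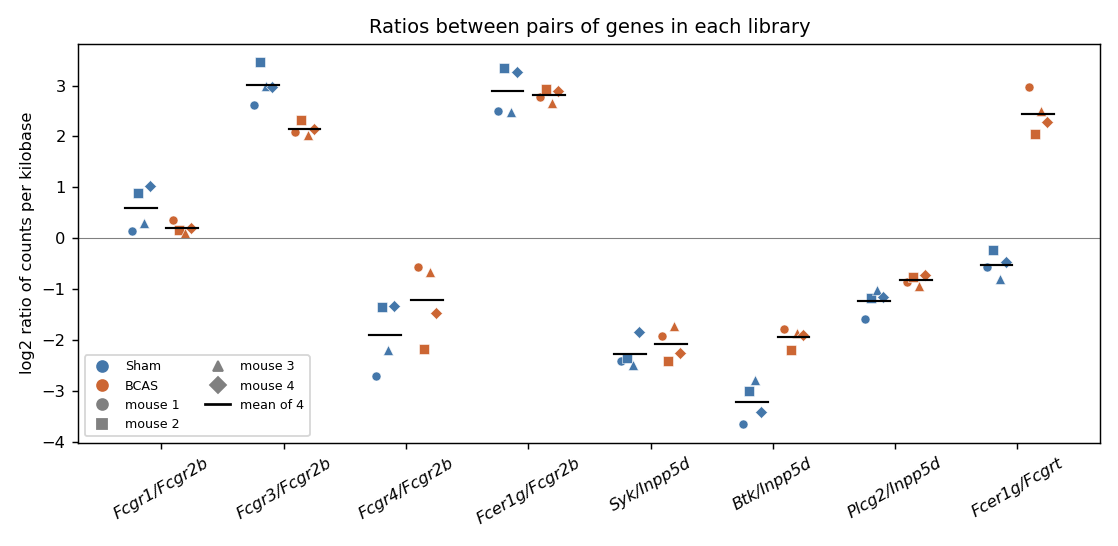
Log2 ratio of counts per kilobase (vertical axis) for the 8 gene pairs in each of 4 Sham (blue) and 4 BCAS (orange) libraries, with marker shapes for mice 1 to 4 and a black bar for the mean of 4. Fcgr3/Fcgr2b is lower in every BCAS mouse (mean log2 difference -0.87), Btk/Inpp5d, Plcg2/Inpp5d and Fcer1g/Fcgrt are higher in every BCAS mouse (1.29, 0.42 and 2.97), and the groups overlap in the other four pairs.

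Each gene was also set against the microglia of the same library, as its log2 CPM minus the mean log2 CPM of the 12 microglial identity genes, which include Tmem119, P2ry12, Cx3cr1, Csf1r and Fcrls. All 12 were called higher, with a median log2 fold change of 2.77, and their mean log2 CPM went from 4.81 ± 0.10 in Sham to 7.37 ± 0.73 in BCAS (SD, n = 4 each). Relative to this mean, 6 of the genes were higher in every BCAS mouse than in any Sham mouse, which held for 1.35% of all tested genes. These were Fcgr4 by 2.21 on the log2 scale, Fcgr2b by 1.53, Fcer1g by 1.45, Btk by 1.22, Fcgr1 by 1.16 and Fcgr3 by 0.67. Fcgrt was lower in every BCAS mouse, from -0.71 ± 0.09 in Sham to -2.23 ± 0.30 in BCAS (SD, n = 4 each), a log2 difference of -1.52. Because the reference itself rose, 91.7% of all tested genes were lower in every BCAS mouse on this scale, so the direction of Fcgrt was that of most genes. For these 7 genes the exact permutation p was 0.0286, the smallest possible, and the Benjamini-Hochberg value over the 10 genes was 0.0408.

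The remaining 3 genes differed less from the identity genes in their change. Inpp5d was at -0.48 ± 0.20 in Sham and -0.54 ± 0.19 in BCAS, a log2 difference of -0.06 (exact permutation p = 0.629). Syk differed by 0.13 (exact permutation p = 0.657) and Plcg2 by 0.35 (exact permutation p = 0.0571, adjusted 0.0714), with overlapping groups in each. Against Csf1r alone, or against the list without Fcrls, again 7 genes were apart, and these references were chosen after the data were seen.

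**Figure D3:**
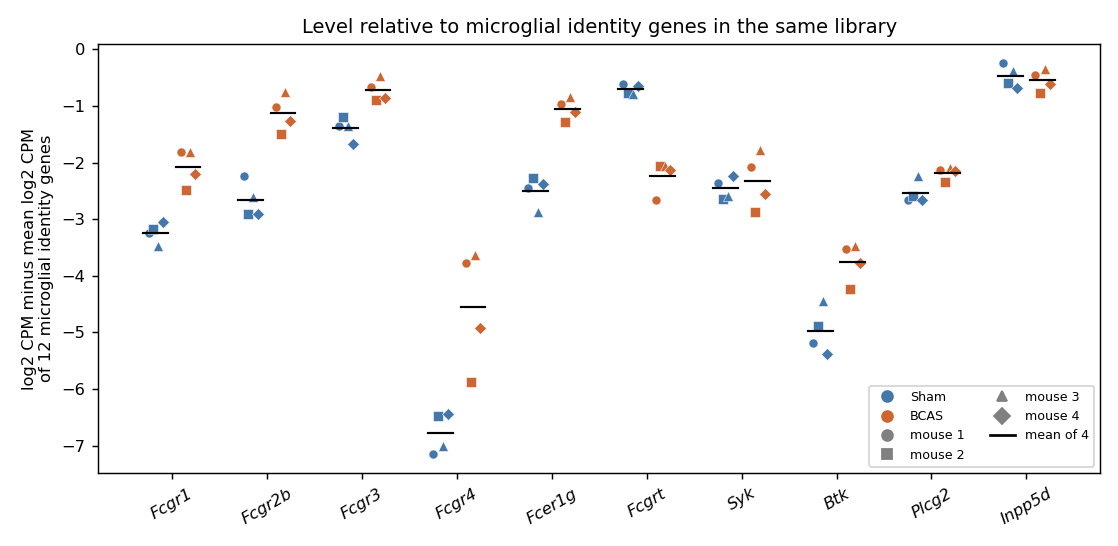
Log2 CPM of each gene minus the mean log2 CPM of 12 microglial identity genes in the same library (vertical axis), for 4 Sham (blue) and 4 BCAS (orange) libraries, with marker shapes for mice 1 to 4 and a black bar for the mean of 4. Fcgr1, Fcgr2b, Fcgr3, Fcgr4, Fcer1g and Btk are higher in every BCAS mouse (by 0.67 to 2.21), Fcgrt is lower in every BCAS mouse (-1.52), as were 91.7% of all tested genes, and Syk, Plcg2 and Inpp5d overlap.

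Other cell types that carry Fc receptors were measured by their own markers. Border-associated macrophage genes (8 listed, all tested) had 6 called higher, with a summed level of 17.7 to 22.3 CPM in Sham and 33.5 to 122.2 CPM in BCAS. Monocyte genes had 2 of 3 tested called higher, and their sum over 6 genes was 21.9 to 29.7 CPM in Sham and 32.8 to 141.8 CPM in BCAS. Nearly all of the Sham sum was Vcan (log2 fold change 0.71, not called), and without it, a choice made after the values were seen, the other 5 genes summed to 0.422 to 1.75 CPM in Sham and 3.76 to 84.2 CPM in BCAS. Of 8 neutrophil genes none had enough counts to be tested, their sum was 0.2496 to 0.909 CPM in Sham and 0.876 to 15.5 CPM in BCAS, and Ly6g, a defining marker, was at 0 in all 8 libraries. S100a9, another neutrophil gene, had 6, 1, 4 and 0 counts in Sham and 92, 7, 98 and 16 in BCAS, and Cxcr2 had 2, 0, 0 and 2 and then 71, 0, 65 and 4, with the most in BCAS mice 1 and 3. Both were named after their values were seen, and Ngp and Camp of the same list stayed under 10 counts in every library. Mast cell and basophil genes summed to 1.02 to 1.37 and 1.39 to 5.35 CPM, with 1 of 8 tested and called, and both subunit genes particular to the IgE receptor, Fcer1a and Ms4a2, stayed under 10 counts in every library. The 6 natural killer genes overlapped between the groups, at 0.114 to 12.9 CPM in Sham and 1.91 to 24.1 CPM in BCAS, and 1 of 2 tested was called higher. Eomes reached 12.8 CPM in Sham mouse 4 and 12.3 CPM in BCAS mouse 1, and without it the sums were at most 0.400 CPM in Sham and 1.75 to 11.7 CPM in BCAS (Eomes was set apart after its values were seen). Endothelial genes, 8 of 8 tested, had no call in either direction, with 2 higher by the adjusted p alone (19.2% of all tested genes were), a median log2 fold change of 0.34 and a sum of 237.1 to 322.7 CPM in Sham and 289.0 to 453.2 CPM in BCAS. The part of each cell type in the levels of the 10 genes was not tested.

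The start sites of the activating receptors and of Inpp5d are shown as examples of windows that hold a short sequence. All 10 genes rose, with or without that sequence, and a link between it and the rise was not tested. Promoter windows of 250 bases before to 50 bases after the start came from RefSeq (GRCm38.p6), and all 10 genes matched, with 12 windows in all. Each run below ends at the base before the start and is written 5′ to 3′ on the gene's strand, with capitals for matches to the PU box (GAGGAA, or TTCCTC on the other strand) and the interferon response core (GAAA, any 2 bases, GAAA), each searched on both strands.
Fcgr1, chr3:96293970-96294089, minus strand: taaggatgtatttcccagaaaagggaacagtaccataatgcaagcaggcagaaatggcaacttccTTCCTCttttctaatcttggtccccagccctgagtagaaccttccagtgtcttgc
Fcgr3, chr1:171059404-171059523, minus strand: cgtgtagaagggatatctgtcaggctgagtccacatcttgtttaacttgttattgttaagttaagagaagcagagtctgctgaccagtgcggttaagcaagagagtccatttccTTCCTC
Fcgr4, chr1:171018806-171018925, plus strand: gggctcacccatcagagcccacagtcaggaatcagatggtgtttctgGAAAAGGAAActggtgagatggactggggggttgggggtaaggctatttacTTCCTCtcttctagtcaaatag
Inpp5d, chr1:87620192-87620311, plus strand: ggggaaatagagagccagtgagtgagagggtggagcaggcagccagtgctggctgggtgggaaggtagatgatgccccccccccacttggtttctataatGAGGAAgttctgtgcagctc

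PU boxes are the class of site bound by PU.1, a transcription factor of macrophages and B cells. The 6 letters were found in windows of 6 of the 10 genes (Fcgr1, Fcgr3, Fcgr4, Syk, Btk and Inpp5d, with Syk through its second start only). Counted by window, this was 7 of 12, beside 28.3% of the 32851 promoter windows searched. They were not found in those of Fcgr2b, Fcer1g, Fcgrt and Plcg2. The interferon response core was found for Fcgr4 and in 3.44% of all windows. In the exons counted for the files, the Fcgr4 run overlaps the first exon by 6 bases, the Fcgr3 run lies inside the gene's span between exons, and the runs of Fcgr1 and Inpp5d lie directly upstream of the gene. A match is a description of the letters and not a measured site, and the motifs were picked after the windows were seen.

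The genes most like a member were those with at least 100 counts on average and the smallest root-mean-square difference in log2 CPM, relative to the Sham mean, over the 8 libraries. For Fcer1g these were Naip2 (0.0866), the receptor gene Cd300c2 (0.156) and the lysosomal protease gene Ctss (0.171). For Fcgr2b they were the actin-capping gene Capg (0.148) and the complement genes C1qa (0.169) and C1qb (0.169). For Fcgrt they were Sft2d2 (0.0582), Ankrd13a (0.0593) and Frmd4b (0.0819), with log2 fold changes of 1.04, 1.16 and 1.10, each under 1 without BCAS mouse 1 (0.87, 0.97 and 0.86).

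The other genes of the pathway were taken as lists by role. Of 14 other immunoglobulin receptors, Fc receptor-like genes and partner chains, 6 were tested and 4 were called higher, with a median log2 fold change of 2.79. Of all tested genes, 11.0% were called higher. B2m, the light chain that FcRn needs, went from 89.6 ± 9.55 to 1044 ± 620 CPM (SD, n = 4 each; edgeR log2 fold change 3.54, adjusted p = 0.00181), beside the 1.10 of Fcgrt. Fcrls, which is also one of the 12 microglial identity genes, went from 28.9 ± 0.694 to 411.2 ± 233.4 CPM (log2 fold change 3.83, adjusted p = 0.00146 in edgeR). Fcrl1, a B cell receptor-like gene, had 1, 5, 8 and 6 counts in Sham and 247, 35, 124 and 86 counts in BCAS (log2 fold change 4.32, adjusted p = 0.00333 in edgeR). Trim21, the cytosolic antibody receptor, had a log2 fold change of 2.03 ± 0.34 (SE) and an adjusted p of 0.00457 in edgeR.

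The low-affinity IgE receptor gene Fcer2a (log2 fold change 0.20, adjusted p = 0.780) and Fcrlb (log2 fold change -0.97, adjusted p = 0.129) were not called. Fcrla had 1, 0, 1 and 0 counts in Sham and 40, 1, 15 and 2 in BCAS, and the IgM receptor gene Fcmr had 1, 0, 3 and 0 and then 54, 1, 32 and 5. Fcrl5 had at most 15 counts, in BCAS mouse 1. These 3 did not pass the filter and were not tested, and their counts stood highest in BCAS mice 1 and 3.

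The Src-family kinases, which phosphorylate ITAMs, split by gene. Of 7 tested, 4 were called higher. Fgr, with 2, 2, 2 and 9 counts in Sham and 502, 53, 265 and 176 in BCAS, had a log2 fold change of 5.74 ± 0.77 (SE, edgeR adjusted p = 0.00252). Lyn, likewise a kinase of myeloid cells, was called as well (log2 fold change 3.04, adjusted p = 0.00305 in edgeR). So was Lck, a lymphocyte kinase named after its value was seen (2.89, adjusted p = 0.00897). The broadly expressed Fyn (0.01, adjusted p = 0.923) and Src (-0.27, adjusted p = 0.131) were not called.

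A further list held ITAM adaptors, Syk partners and related receptors and kinases, and all 7 tested were called higher, with a median log2 fold change of 4.32. Clec7a (Dectin-1), a fungal glucan receptor that also signals through Syk, changed most, from 0.513 ± 0.181 to 145.3 ± 85.8 CPM (SD, n = 4 each; edgeR log2 fold change 8.12, adjusted p = 0.00146). The integrin genes Itgb2 (4.43) and Itgam (3.19), which form complement receptor 3, and Trem2 (4.34) with its adaptor Tyrobp (4.32) followed. Hcst (2.51), which signals through PI3-kinase and has no ITAM, and Zap70 (1.32, adjusted p = 0.0196), the Syk relative of T cells, had the smallest log2 fold changes of the 7. Zap70 lost its call in 5 of the alternatives, with the adjusted p between 0.0509 and 0.0591 in the 4 of them where it passed on size.

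Of 24 tested adaptors and effectors downstream of Syk, 15 were called higher and none lower, with a median log2 fold change of 1.71. Among those with at least 100 counts on average, the largest log2 fold changes were those of the PI3-kinase adaptor Pik3ap1 (3.90), the GTPase Rac2 (3.90), the membrane adaptor Lat2 (3.76), the exchange factor Vav1 (3.61) and the adaptor Lcp2, also known as SLP-76 (3.48). Plcg1, the relative of Plcg2 found in most cells, was at -0.05 (adjusted p = 0.646) and Cblb, a ubiquitin ligase, at -0.01 (adjusted p = 0.977). By adjusted p alone 20 were higher and 1 was lower, against 19.2% and 12.8% of all tested genes. The lower one was the protein kinase C gene Prkcb (-0.72, adjusted p = 0.0304), which was named after its value was seen.

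The phosphatases and other brakes on the pathway were higher too, with 9 of 14 tested called, none lower and a median log2 fold change of 1.09. Among those with a mean of at least 100 counts, Ptprc (CD45, 4.30) and Ptpn6 (SHP-1, 4.06) led, and were followed by the adaptors Dok1 (2.95), Sla (1.70) and Pag1 (1.24). Ptprc can also activate Src-family kinases by removing their inhibitory phosphate. Ptpn11 (SHP-2) was at 0.03 (adjusted p = 0.832) and Sla2 at 0.17 (adjusted p = 0.859). The count of called brakes was 4 without BCAS mouse 1 and 5 without Sham mouse 1, where Pag1 among others lost its call without BCAS mouse 1 with a log2 fold change of 1.00.

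**Figure D4:**
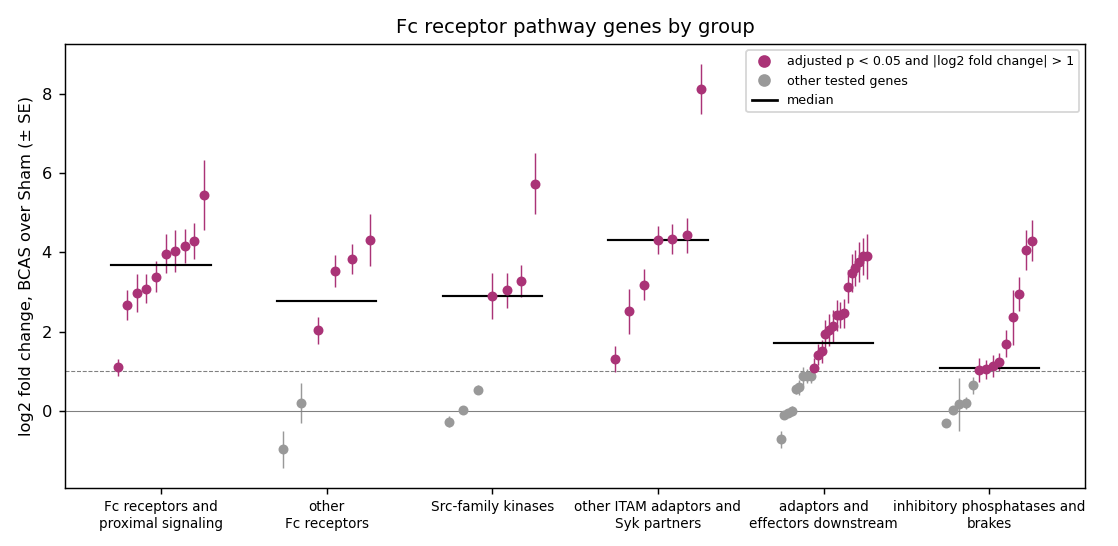
Log2 fold change of BCAS over Sham (vertical axis, bars show ± SE) of the tested genes of each group, with purple for called genes, grey for other tested genes and a black bar for the group median. The medians run from 3.68 for the Fc receptors and proximal signaling genes and 4.32 for other ITAM adaptors and Syk partners down to 1.09 for inhibitory phosphatases and brakes, and no gene shown was called lower.

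The ligands of these receptors are immunoglobulins, whose transcripts come from B lineage cells. Of 16 immunoglobulin and B cell genes, 7 were tested and 6 were called higher in edgeR (median log2 fold change 3.48). For Igha, Igkc and Jchain the BCAS mice differed far more among themselves than for the receptors. Igha, the IgA heavy chain, had 8, 13, 6 and 11 counts in Sham and 9409, 32, 2876 and 302 in BCAS (log2 fold change 8.01 ± 1.68 SE, adjusted p = 0.0104 in edgeR). Igkc, the kappa light chain, had 6, 13, 5 and 5 counts and then 5927, 22, 1954 and 195 (7.76 ± 1.67 SE, adjusted p = 0.0115 in edgeR). Jchain, the joining chain of IgA and IgM, had 10, 5, 11 and 9 counts and then 1990, 19, 620 and 68 (5.91 ± 1.37 SE, adjusted p = 0.0149 in edgeR). BCAS mice 1 and 3 carried most of these transcripts, and BCAS mouse 2 was within a few-fold of Sham.

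The IgG heavy chain genes, which make the ligand of the Fc gamma receptors, summed over 4 genes to 2.52 to 5.57 CPM in Sham and to 174.0, 3.14, 46.3 and 5.83 CPM in BCAS. The groups overlapped, and Ighg2c, the one of the 4 that was tested, was not called (log2 fold change 3.19 ± 1.09 SE, adjusted p = 0.0506 in edgeR). Ighg2b had no count in any Sham mouse and 952, 3, 439 and 15 counts in BCAS, and was not tested because too few libraries had enough counts. Ighm overlapped between the groups, with 767, 592, 265 and 597 counts in Sham and 3665, 825, 1507 and 1112 in BCAS (log2 fold change 1.39, adjusted p = 0.0390 in edgeR), and it lost its call when any 1 mouse other than BCAS mouse 2 was left out (adjusted p 0.0552 to 0.0828). Ighd (2.40, adjusted p = 0.0153) and Cd79b, a chain of the B cell receptor (3.48, adjusted p = 0.00938), were also called, and 5 B cell genes summed to 0.511 to 1.75 CPM in Sham and to 23.0, 2.63, 16.4 and 3.65 CPM in BCAS. In limma-voom the adjusted p was 0.308 for Igha, 0.313 for Igkc, 0.229 for Jchain, 0.0527 for Ighm and 0.0538 for Ighd, so these calls depended on the test. Immunoglobulin constant genes form a multigene family, and their counts are less sure where copies share reads.

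**Figure D5:**
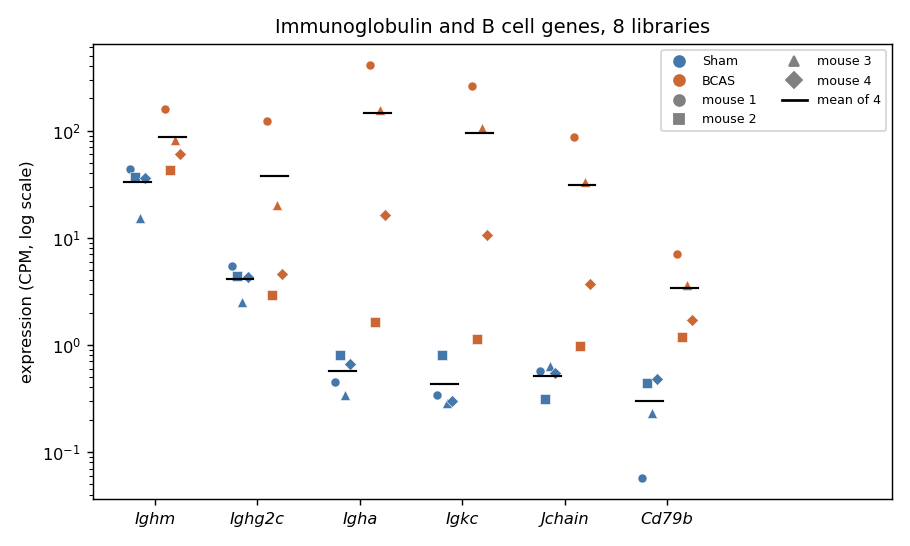
Expression in CPM (log axis) of 5 immunoglobulin genes and the B cell gene Cd79b in 4 Sham (blue) and 4 BCAS (orange) libraries, with marker shapes for mice 1 to 4 and a black bar for the arithmetic mean of 4. BCAS mice 1 (circle) and 3 (triangle) stand highest for all 6 genes, and BCAS mouse 2 (square) is near the Sham mice, with Ighg2c overlapping them.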

How the data were processed

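Total RNA of 8 right cortices, 1 mouse per library, was sequenced in pairs. Per the methods, the authors trimmed reads with Trim Galore, aligned them to mm10 with HISAT2 and counted them with featureCounts, and raw counts per gene were deposited. The file headers name featureCounts 2.0.1 with GENCODE vM20 and no strand option, whereas the processing notes name 1.6.3, so opposite-strand overlap cannot be resolved (2.7% of the exon bases of Fcgr2b). Groups came from the sample titles.

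Counts were tested with edgeR 4.0.16 (TMM, filterByExpr with minimum count 10 and total 15, quasi-likelihood F-test, no covariates) over all 17136 tested genes, and the test was checked on simulated counts. These had the same spread in both groups, so the check does not cover the wider spread among the BCAS mice. Alternatives were other scalings, filters, DESeq2 1.42.0, limma 3.58.1, a replicate block and leaving out each mouse. Ratios and relative levels were taken on the log2 scale after adding a prior count of 0.5, with scipy 1.17.1. The genes, lists and tests were chosen with earlier results of these data known. Named genes were the 10 members, other Fc receptors with at least 10 counts in a library, in each pathway list up to 5 called genes with the largest change (mean of at least 100 counts) and the 2 with the smallest, and the 3 most similar patterns, except for a few that are not reported here. Ighg2c, Ighg2b, Ighd, Cd79b, S100a9, Cxcr2 and the promoter motifs were picked after values were seen.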

Additional observations from a re-analysis of the deposited data

Results flagged for a closer look

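In 56 sets of 4 libraries (each gene's levels, relative levels and ratios in a group), 2 had a library far from the other three, and chance alone flags about 1 in 20 such sets. The level of Fcgrt relative to the microglial identity genes was -2.67 on the log2 scale in BCAS mouse 1, against -2.06, -2.06 and -2.13 in BCAS mice 2 to 4, a gap of 0.891 of the group's range. The relative level of Plcg2 was -2.23 in Sham mouse 3, against -2.66, -2.59 and -2.66 in Sham mice 1, 2 and 4, a gap of 0.833 of the range. Without Sham mouse 3 the Plcg2 difference was 0.45 instead of 0.35, and the groups no longer overlapped.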

How the results depend on the processing

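The number of called genes was 2097, with 1644 to 2967 when 1 mouse was left out (lowest without BCAS mouse 1, highest without BCAS mouse 2). Of the 10 Fc receptor and signaling genes, 9 to 10 stayed called. Fcgr4 was not tested when at least 10 counts were required in every library. The ratios gave 4 and the relative levels 7 to 8 separated genes or pairs in all alternatives, where leaving out a mouse allows no p under 0.0571. Mice with the same replicate number showed little correlation of their deviations (-0.103 to 0.0013), which cannot exclude that they were paired. The replicate block gave 1809 genes and all 10 members. In that edgeR fit Ighm had an adjusted p of 0.0521, Zap70 had 0.0519 and Sla2 had a log2 fold change of -0.036. Called genes among the lists moved as follows, with causes not tested beyond the number of genes or mice kept. Src-family kinases went from 4 to 2 with at least 10 counts in every library. The brakes ranged from 4 to 9 when a mouse was left out. The immunoglobulin and B cell list went from 6 to 15 without the filter, 2 with at least 10 counts in every library and 1 in limma-voom, and ranged from 3 (without Sham mouse 1) to 9 when a mouse was left out. Jchain lost its call without Sham mouse 1 (adjusted p 0.0502) or 2 (0.0504), Ighd without Sham mouse 1 (0.0503), and Zap70 when Sham mouse 1 (0.0591), Sham mouse 2 (0.0523) or BCAS mouse 3 (0.0509) was dropped, whereas Ighg2c gained one without BCAS mouse 2 (0.00996) or 4 (0.0447), with library size alone, without the filter and in DESeq2. Genes near 0 changed sign: Fcer2a (up to 0.48 with a mouse left out, -0.058 without Sham mouse 4, -0.22 without BCAS mouse 1), Fyn (-0.0045 with the upper quartile, and -0.0051, -0.0065 and -0.015 without Sham mouse 3, Sham mouse 4 and BCAS mouse 1, with a highest value of 0.029 with a mouse left out), Plcg1 (0.043 with library size alone), Ptpn11 (-0.035 and -0.0019 without Sham mouse 3 and BCAS mouse 4, up to 0.081), Cblb (0.085 with library size alone, 0.013 with at least 10 counts in every library, and 0.041, 0.072 and 0.052 without Sham mouse 1, BCAS mouse 2 and BCAS mouse 4, with a lowest value of -0.11) and Sla2 (-0.28 in limma-voom, and -0.055 and -0.45 without Sham mouse 1 and BCAS mouse 1, up to 0.56).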
